A study of Homo sapiens with 24 samples.

Results

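Genes of the G2 phase and mitosis were followed in K562 cells after siRNA against GATA1, over 45 listed symbols that run from cyclins and mitotic kinases to spindle motors and condensin subunits. All 45 were rows of the deposited table of 27311 gene symbols, and 43 had enough counts to be tested. K562 is a human erythroleukemia line, and GATA1 is the transcription factor that drives erythroid genes. In each of 24 libraries, 200000 cells received a single siRNA and were grown for 48 hours, then 10000 cells were lysed and the 3' ends of their polyadenylated RNA were sequenced in pooled form (BRB-seq). The 6 groups of 4 libraries received siGATA1-1 (25 nM), siGATA1-2 (6.25 nM), or 1 of the non-targeting siRNAs siNC-1 and siNC-2 at either dose, all of them Ambion Silencer Select reagents. Every group was the same line, transfected with an siRNA, and since the GATA1 siRNAs were used at unlike doses, a difference between them mixes sequence with dose and these cannot be told apart. K562 cells divide continuously and are not a model of a normal erythroid precursor that leaves the cell cycle as it matures.

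Entry into mitosis is driven by cyclin B bound to CDK1, with PLK1 and the Aurora kinases acting beside it. The spindle checkpoint then holds the anaphase-promoting complex until every chromosome is attached, after which cyclin B and securin are destroyed, sister chromatids part and the cell divides. Most genes of this program are transcribed late in the cycle through promoters that carry a CCAAT box and a cell cycle genes homology region, usually TTTGAA, where the MuvB complexes bind. In bulk RNA, fewer cells in G2 or mitosis and less RNA per cell cannot be told apart.

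Promoter sequences were read from RefSeq (GRCh38.p14) to show what this arrangement looks like. The 5 printed were picked from the 11 members with TTTGAA within the 40 bases before a start and CCAAT within 110, so they are examples of the pattern and not typical of all members. CCNA2, CCNB1 and NCAPH, for instance, had CCAAT in their windows but not TTTGAA. Each is the 110 bases directly before an annotated start, 5′ to 3′ on the gene's strand, with TTTGAA and CCAAT on either strand in capitals (TTCAAA and ATTGG are their reverse complements). PLK1 lies at chr16:23678779-23678888, CDK1 (the second of its listed starts) at chr10:60778368-60778477, CCNB2 at chr15:59105036-59105145, CKS1B at chr1:154974571-154974680 and CKS2 at chr9:89311085-89311194, all on the plus strand.
PLK1: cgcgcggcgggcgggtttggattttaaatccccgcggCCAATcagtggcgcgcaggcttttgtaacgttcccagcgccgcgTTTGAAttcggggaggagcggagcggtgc
CDK1: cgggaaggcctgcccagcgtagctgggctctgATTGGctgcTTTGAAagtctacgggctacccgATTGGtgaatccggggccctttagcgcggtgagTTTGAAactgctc
CCNB2: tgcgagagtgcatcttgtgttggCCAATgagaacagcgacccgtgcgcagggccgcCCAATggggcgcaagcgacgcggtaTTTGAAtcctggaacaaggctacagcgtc
CKS1B: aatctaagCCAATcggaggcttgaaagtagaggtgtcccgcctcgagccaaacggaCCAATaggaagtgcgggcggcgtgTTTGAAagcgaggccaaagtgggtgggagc
CKS2: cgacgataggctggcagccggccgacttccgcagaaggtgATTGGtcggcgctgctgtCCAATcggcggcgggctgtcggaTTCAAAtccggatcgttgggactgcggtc

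TTTGAA began at position -29 from the start in PLK1, CCNB2 and CKS2, at -30 in CKS1B, and at both -69 and -13 in CDK1. Of the 45 members, 39 had an entry among the 300-base promoter windows, which span 250 bases before to 50 after a start. AURKA, BIRC5, UBE2C, TPX2, BUB3 and TTK had no entry. TTTGAA on either strand was found in 28 of the 39 members (71.8%) and in 18.2% of the 27305 genes with a window. It began within the 40 bases before the start in 17 members (43.6%) and in 2.64% of all genes. CCAAT on either strand was found in 32 members (82.1%) and in 39.7% of all genes, and both motifs stood in the same window in 23 members (59.0%) and in 7.26% of all genes. The rarer form TTCGAA was found in 3 members (7.69%), BUB1, CCNF and CDC25B, against 1.82% of all genes. Of the letters used here for a GATA site, AGATAA was in 0 of the 39 members and in 12.4% of all genes, and TGATAA was in 3 members (7.69%), SMC4, HMMR and CDCA3, against 9.22%. These are matches of letters in 1 to several windows per gene, chosen with no regard to the libraries, and are not measured binding sites.

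Levels are given as CPM, the usual depth-normalised count, with library sizes scaled by TMM (trimmed mean of M values). The libraries were shallow, with 88290 to 473098 counts each, so that before this scaling 3 counts were worth 34 CPM at the lowest total and 6.34 at the highest. GATA1 itself was lower with both siRNAs: 242 to 308 CPM with siGATA1-1 against 389 to 717 in the 8 controls at 25 nM (log2 fold change -0.97, SE 0.16, edgeR quasi-likelihood adjusted p = 3.04e-05), and 165 to 334 CPM with siGATA1-2 against 478 to 630 in the 8 controls at 6.25 nM (-1.19, SE 0.18, adjusted p = 5.53e-07). All 11 erythroid markers listed passed the filter, against 4 of 8 fibroblast or epithelial, 2 of 6 lymphoid and 1 of 8 megakaryocyte markers. The summed erythroid level was 13450 to 17690 CPM with siGATA1-1 against 19810 to 25150 in its controls. With siGATA1-2 it was 13250 to 19460 against 25780 to 31210. Of the 11, 10 lay below 0 in log2 fold change with siGATA1-1 and all 11 with siGATA1-2. The summed level of 10 myeloid markers was 862 to 1377 CPM against 576 to 803, and 979 to 1555 against 390 to 723, with 4 of the 10 passing the filter and 4 at 0 throughout the siGATA1-2 group. The fibroblast or epithelial sum was 657 to 907 CPM with siGATA1-1 against 609 to 988, and 500 to 718 with siGATA1-2 against 702 to 908. In that siGATA1-2 comparison EPCAM was called lower (log2 fold change -1.53, edgeR adjusted p = 0.00127). The lymphoid sum was 495 to 645 CPM against 415 to 712, and 416 to 664 against 301 to 560. The erythroid and myeloid sums moved with both GATA1 siRNAs. The part of these lists in the results on mitosis genes was not tested.

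No mitosis gene was called in the comparisons of either GATA1 siRNA. With edgeR's quasi-likelihood test, adjusted over 6738 genes and called at an adjusted p under 0.05, 0 of 43 members passed for siGATA1-1, where 0.727% of all tested genes did. For siGATA1-2 it was 0 of 43 against 3.03% of all tested genes, and for the mean of both effects 0 of 43 against 4.48%. With only 43 members, 0 calls is near these small shares and does not set the members apart. At an unadjusted p under 0.05, 3 members passed for siGATA1-1 (6.98%, against 6.38% of all tested genes). There were 3 for siGATA1-2 (6.98% against 15.8%) and 3 for the mean effect (6.98% against 16.6%). The first share is near that of all tested genes and the others are under it. Each of these members was lower after knockdown. They were NCAPH, PLK1 and CDC20 for siGATA1-1, then CKS1B, CENPE and CDK1 for siGATA1-2, then PLK1, CDK1 and CCNA2 for the mean effect. DESeq2 and limma voom also called 0 members in these 3 comparisons.

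The members' fold changes were small and lay slightly below 0. Their median log2 fold change was -0.08 for siGATA1-1 (25 of 43 below 0), -0.17 for siGATA1-2 (34 of 43, 79.1%) and -0.14 for the mean effect (31 of 43, 72.1%). Over all tested genes the medians were 0.01, -0.01 and -0.00, with 50.9% below 0 for siGATA1-2 and 50.3% for the mean effect. The members' medians carry no test. The control siRNAs set against each other gave medians of the same size, -0.18 for siNC-1 against siNC-2 at 25 nM and 0.11 at 6.25 nM. Those control comparisons set 4 libraries against 4 and differed in sign. The medians of both GATA1 siRNAs, each against 8 controls, lay below 0. In no member did the 4 libraries of a GATA1 siRNA lie wholly below or wholly above the 8 matched controls. Of all tested genes, 0.92% lay wholly below and 0.89% wholly above for siGATA1-1, and 0.994% and 1.29% for siGATA1-2. For 43 members, 0 is near these shares and does not set them apart from other genes.

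**Figure D1:**
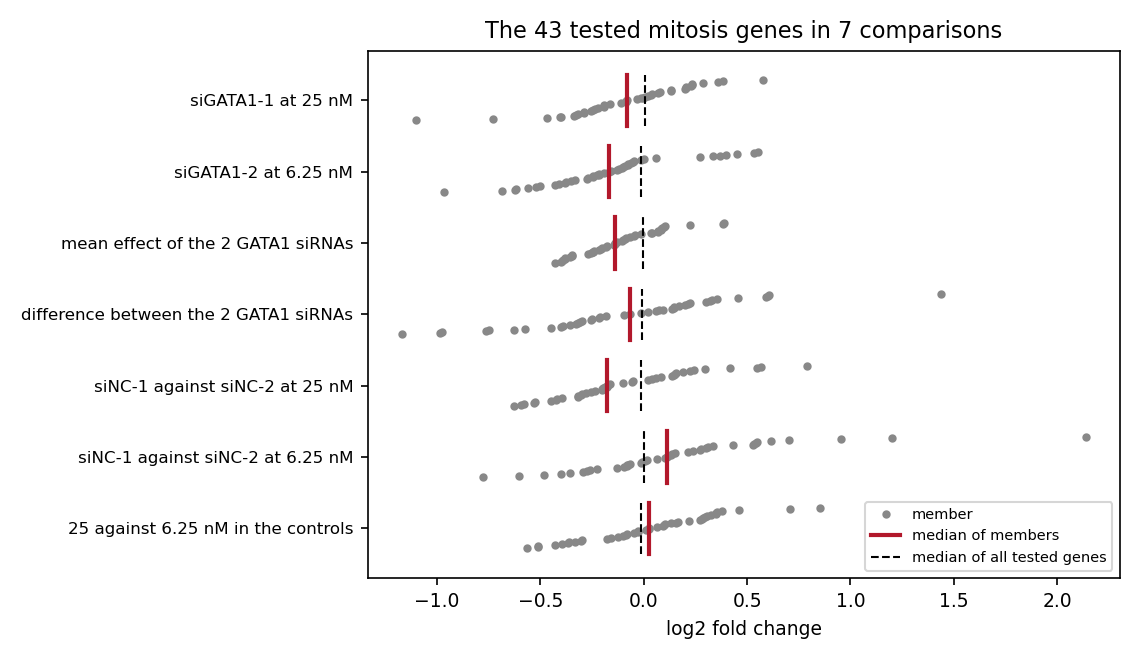
Log2 fold change (horizontal axis) of each of the 43 tested mitosis genes (grey points, spread vertically by rank) in 7 comparisons, with the members' median in red and the median of all tested genes dashed. The members' medians for the GATA1 siRNAs, -0.08 and -0.17, lie within the range of those for the control siRNAs against each other, -0.18 and 0.11.

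The precision sets what these data could have shown. For the mean effect the median standard error of a member was 0.24 on the log2 scale, and the 95% interval lay within 1 log2 unit of 0 for 40 of 43 members and within 1.5-fold (0.585) for 14. For siGATA1-1 alone the corresponding counts were 29 and 3, and for siGATA1-2 alone 18 and 6. A change of 2-fold was therefore outside the interval for most members in the mean effect, while changes of 1.5-fold were inside it for most. The members held 28041 counts in all, and the tested ones had a median of 20.7 counts per library.

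**Figure D2:**
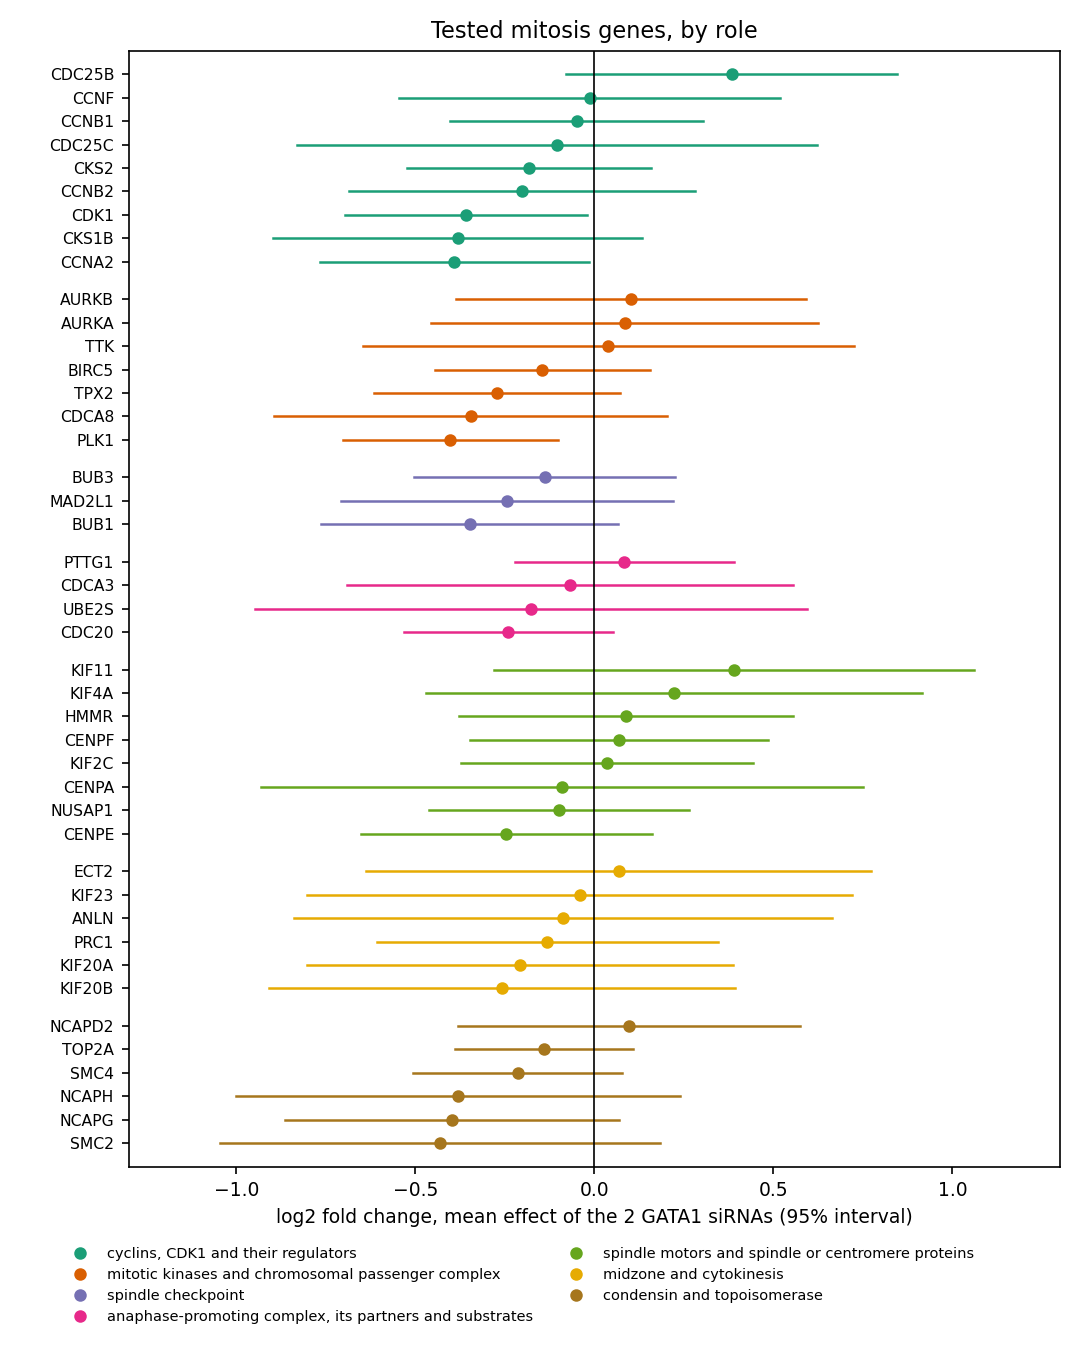
Log2 fold change for the mean effect of both GATA1 siRNAs (points) with 95% intervals (lines) for the 43 tested mitosis genes, grouped and coloured by role. The interval crosses 0 for every gene except PLK1, CDK1 and CCNA2, and the values run from -0.43 for SMC2 to 0.39 for KIF11.

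As a share of all counts, the 45 mitosis genes together gave 0.406 to 0.446% in the siGATA1-1 libraries (mean 0.424 ± 0.0175, SD, n = 4) and 0.378 to 0.511% in the controls at 25 nM (0.453 ± 0.0496, n = 8). With siGATA1-2 they gave 0.351 to 0.429% (0.393 ± 0.0362, n = 4), and in the controls at 6.25 nM 0.412 to 0.479% (0.444 ± 0.0287, n = 8). The siGATA1-1 libraries lay inside the range of their controls, and the siGATA1-2 libraries overlapped theirs, with 2 of the 4 above the lowest control. Genes of DNA replication, which act earlier in the cycle, gave 0.234 to 0.281% with siGATA1-2, wholly below the 0.296 to 0.368% of the same controls. Singly, 2 of the 32 tested lay wholly below these controls, against 0.994% of all tested genes, and the summed share was not tested. With siGATA1-1 they gave 0.296 to 0.354%, inside the 0.275 to 0.366% of its controls. The control at 0.275% was siNC-2 replicate 1, with 88290 counts. The next lowest read 0.299%, above the lowest siGATA1-1 library.

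**Figure D3:**
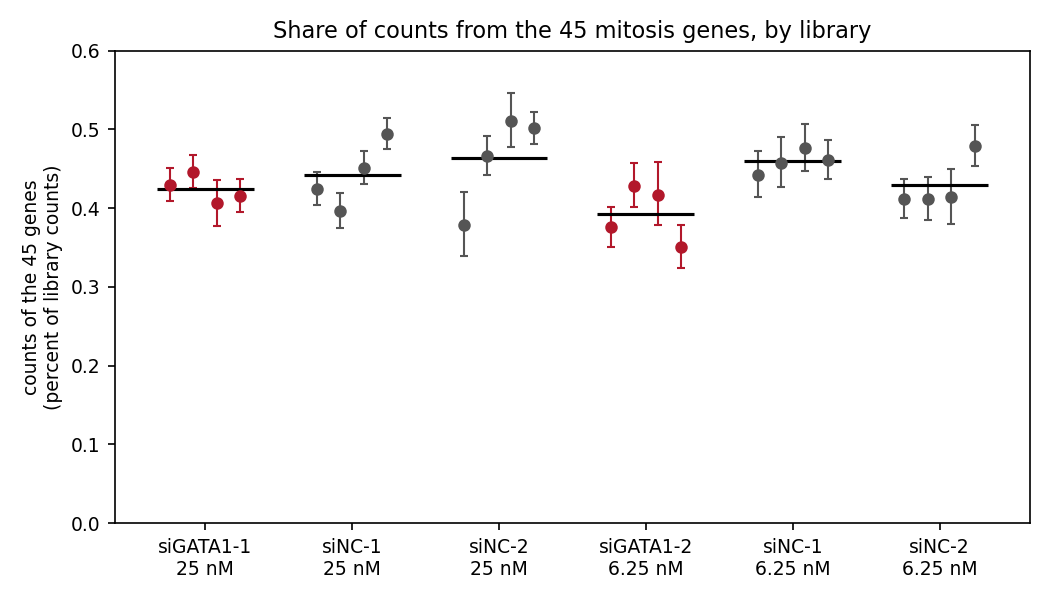
Percent of each library's counts that came from the 45 mitosis genes (vertical axis, from 0) in the 6 groups, with exact 95% binomial intervals that cover counting error only and the mean of 4 libraries as a bar. Libraries with a GATA1 siRNA (red) span 0.351 to 0.446% and those with a control siRNA (grey) 0.378 to 0.511%.

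Among the cyclins, CDK1 and their regulators, 0 of 9 were called, and 8 of 9 lay below 0 in the mean effect (median -0.18). CDK1, the kinase that starts mitosis, read 299, 193, 147 and 190 CPM in the siGATA1-1 libraries, against 104 to 320 (median 269) in the controls. The siGATA1-2 libraries read 83.4, 223, 146 and 204 CPM against 118 to 321 (median 240). In each comparison the knockdown medians were the lower ones, but the ranges overlapped widely. Its log2 fold change was -0.19 (SE 0.23) with siGATA1-1, -0.52 (SE 0.26, edgeR adjusted p = 0.296) with siGATA1-2 and -0.36 (SE 0.17, adjusted p = 0.264) in the mean effect.

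CCNA2, the cyclin A that serves both S phase and mitotic entry, read 96.7, 140, 82.5 and 119 CPM with siGATA1-1 against 89.2 to 191 (median 162). With siGATA1-2 it read 69.5, 184, 156 and 85.1 CPM against 80.5 to 190 (median 171). Only 1 library of each knockdown group fell below every matched control. The mean effect was -0.39 (SE 0.19, edgeR adjusted p = 0.273), with -0.40 for siGATA1-1 and -0.38 for siGATA1-2.

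The cyclin B genes encode the partners of CDK1. CCNB1 read 154, 165, 177 and 128 CPM with siGATA1-1 against 25.9 to 208 (median 171), and 176, 169, 93.8 and 204 CPM with siGATA1-2 against 107 to 269 (median 143). The siGATA1-1 libraries lay within their controls, 1 siGATA1-2 library lay below all of its own, and the mean effect was -0.05 with a 95% interval from -0.40 to 0.30. The control at 25.9 CPM held only 2 counts of CCNB1, in a library where 3 counts were 38.9 CPM. The next lowest control at 25 nM read 143 CPM, above the siGATA1-1 library at 128 CPM. CCNB2 read 88.2, 132, 100 and 38.7 CPM with siGATA1-1 against 38.9 to 123 (median 86.6), and 64.9, 121, 20.8 and 51.1 CPM with siGATA1-2 against 43.4 to 191 (median 79.1). In each knockdown group 1 library lay below all controls, and 1 siGATA1-1 library lay above them. The siGATA1-2 library below its controls held only 2 counts of CCNB2. The log2 fold change of CCNB2 was 0.02 (SE 0.32) with siGATA1-1, -0.43 (SE 0.36) with siGATA1-2 and -0.20 (SE 0.24) in the mean effect.

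CKS1B and CKS2 encode the small CDK-binding subunits, close relatives whose reads the authors' counting could in part have shared. CKS1B read 85.4, 86.8, 47.2 and 83.3 CPM with siGATA1-1 against 33.05 to 138 (median 56.8). With siGATA1-2 it read 23.2, 58.1, 0 and 108 CPM against 56.9 to 145 (median 103); the library at 0 had 102225 counts, where 3 counts were 31.3 CPM. In the siGATA1-2 group 2 libraries thus lay under every control and 2 did not. The log2 fold change was 0.20 (SE 0.34) with siGATA1-1 and -0.97 (SE 0.39, edgeR adjusted p = 0.187) with siGATA1-2. Left without the siGATA1-2 library at 108 CPM (replicate 4), the latter became -1.65 (SE 0.46, adjusted p = 0.0381), where 1.57% of all tested genes were called. The difference between both siRNAs was -1.17 (SE 0.52, edgeR adjusted p = 0.954). Between the doses of the controls CKS1B gave -0.56 for 25 against 6.25 nM (SE 0.28, adjusted p = 0.378), which was not called. CKS2 gave -0.18 (SE 0.17) in the mean effect.

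The remaining members of this role were CDC25B and CDC25C, phosphatases that activate CDK1, and CCNF, a cyclin that serves a ubiquitin ligase. Their mean effects were 0.38 for CDC25B (95% interval -0.08 to 0.85), -0.10 for CDC25C (-0.83 to 0.62) and -0.01 for CCNF (-0.55 to 0.52). CDC25B had the highest value of the role, with a median of 96.5 CPM for siGATA1-1 against 84.9, and 99.0 for siGATA1-2 against 76.3, in overlapping ranges.

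**Figure D4:**
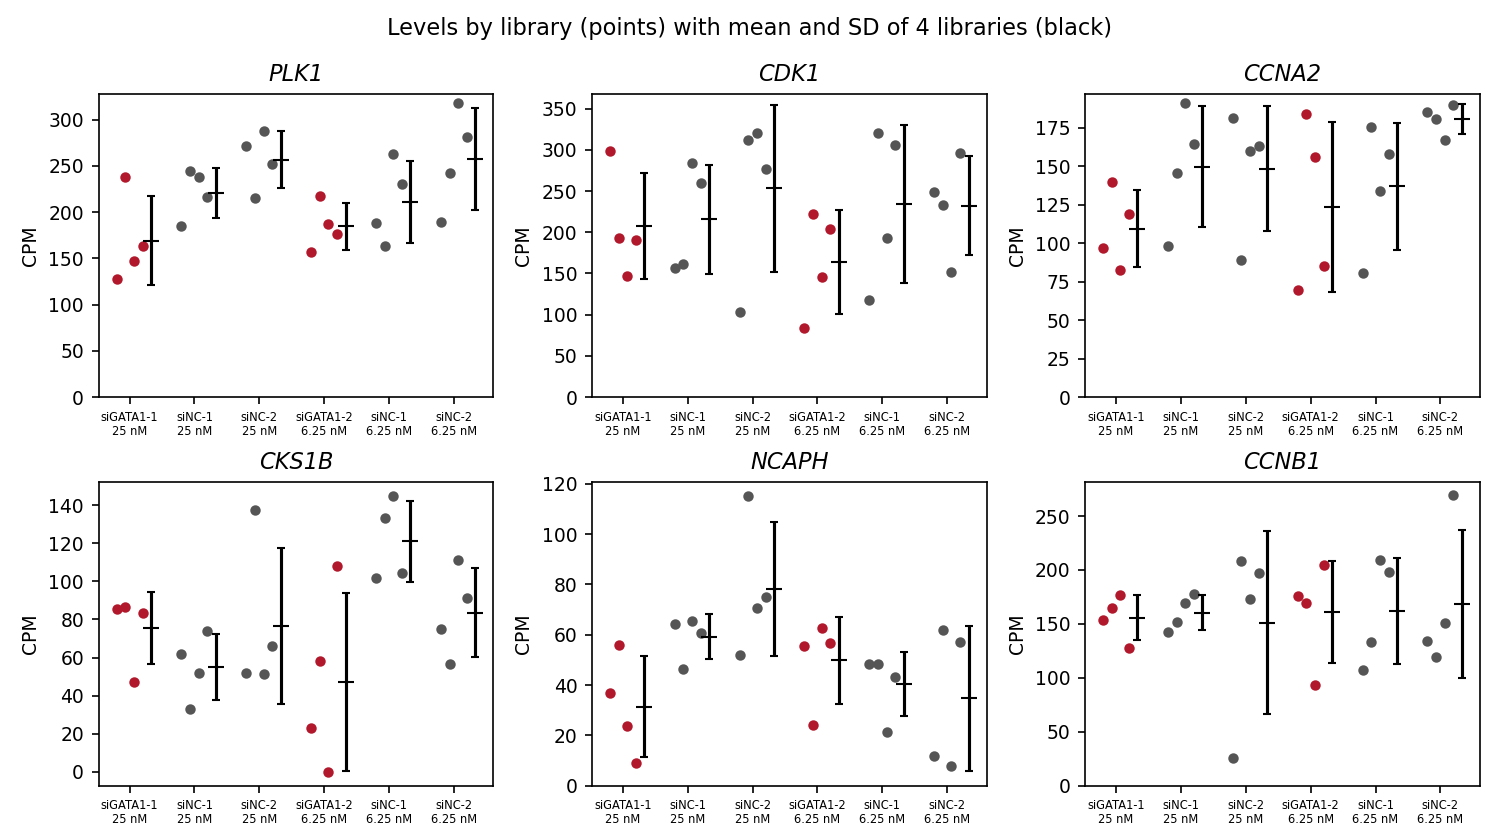
CPM (vertical axes, each from 0 or slightly below) of 6 mitosis genes in every library of the 6 groups, with GATA1 siRNAs in red, control siRNAs in grey, and the mean and SD of 4 libraries in black. The groups overlap for each gene: PLK1 reads 128 to 238 with siGATA1-1 against 185 to 288, and CKS1B reads 0 to 108 with siGATA1-2 against 56.9 to 145.

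Of the mitotic kinases and the chromosomal passenger complex, 0 of 7 were called. PLK1, the polo-like kinase that acts from mitotic entry to cytokinesis, had the smallest p of all members in the mean effect. It read 128, 238, 147 and 164 CPM with siGATA1-1 against 185 to 288 (median 241), and 158, 218, 188 and 176 CPM with siGATA1-2 against 163 to 318 (median 237). Of the siGATA1-1 libraries 3 lay below all 8 controls, and of the siGATA1-2 libraries 1 did. The log2 fold change was -0.47 (SE 0.21, edgeR adjusted p = 0.613) with siGATA1-1, -0.33 (SE 0.22, adjusted p = 0.489) with siGATA1-2 and -0.40 (SE 0.15, adjusted p = 0.12) in the mean effect. Over the 33 alternative analyses of the mean effect PLK1 stayed between -0.52 and -0.29, and its lowest adjusted p was 0.0508.

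The Aurora kinases lay near 0 in the mean effect. AURKA, which builds the spindle poles, read 56.9, 81.2, 94.3 and 98.1 CPM with siGATA1-1 against 27.3 to 78.1 (median 51.6), so that 3 of 4 libraries lay above every control. With siGATA1-2 it read 51.0, 67.8, 72.9 and 17.0 CPM against 31.9 to 170 (median 57.2). The log2 fold changes were 0.58 (SE 0.35) and -0.41 (SE 0.41), and the difference between both siRNAs was -0.99 (SE 0.54, edgeR adjusted p = 0.975). AURKB, the catalytic subunit of the passenger complex, read 71.1, 44.8, 53.1 and 77.3 CPM with siGATA1-1 against 32.8 to 104 (median 73.2), and 55.6, 96.8, 104 and 85.1 CPM with siGATA1-2 against 36.2 to 107 (median 63.8). Its mean effect was 0.10, with an interval from -0.39 to 0.59. TTK, the checkpoint kinase, gave 0.04, and TPX2, the activator of AURKA, gave -0.27 (SE 0.17). The passenger complex subunits BIRC5 (survivin) and CDCA8 (borealin) gave -0.14 (SE 0.15) and -0.35 (SE 0.28).

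In the spindle checkpoint 0 of 3 tested members were called, and all 3 lay below 0 with either siRNA. BUB1, a kinetochore kinase, read 51.2, 112, 88.4 and 122 CPM with siGATA1-1 against 64.8 to 159 (median 102), and 102, 136, 62.5 and 68.1 CPM with siGATA1-2 against 78.9 to 216 (median 129). Below all matched controls lay 1 siGATA1-1 library and 2 siGATA1-2 libraries. The mean effect was -0.35 (SE 0.21, edgeR adjusted p = 0.419). BUB3 and MAD2L1, which help to form the complex that restrains CDC20, gave -0.14 (SE 0.18) and -0.24 (SE 0.23). BUB1B, the pseudokinase of that complex, had 179 counts over all libraries and did not pass the filter, with 11.4 to 38.6 CPM for siGATA1-1 against 10.9 to 40.9, and 22.7 to 41.7 for siGATA1-2 against 23.9 to 87.8.

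Of the anaphase-promoting complex's partners and substrates 0 of 4 tested were called. CDC20, the activator of the complex in mitosis, read 176, 199, 200 and 178 CPM with siGATA1-1 against 168 to 314 (median 259). For siGATA1-2 the values were 222, 169, 333 and 244 CPM against 182 to 342 (median 229). The siGATA1-1 libraries gathered at the low end of their controls and the siGATA1-2 libraries spanned theirs. The log2 fold change was -0.41 (SE 0.20, edgeR adjusted p = 0.775) with siGATA1-1 and -0.07 (SE 0.21) with siGATA1-2. PTTG1 (securin), the inhibitor of separase, gave 0.08 (95% interval -0.22 to 0.39) in the mean effect. UBE2S, a ubiquitin-conjugating enzyme of the complex, gave -0.18 (SE 0.39) and CDCA3 gave -0.07 (SE 0.31). UBE2C, the other conjugating enzyme, had 23 counts in all and 0 in 17 of the 24 libraries, and did not pass the filter. It was at 0 in all 4 siGATA1-2 libraries, where 3 counts were 13.9 to 31.3 CPM. Most controls at 6.25 nM were also at 0, and the highest of them held 3 counts. Of the 23 counts, 12 came from siGATA1-1 replicate 4.

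The spindle motors and spindle or centromere proteins had the only role median above 0 in the mean effect, 0.05, with 0 of 8 called. CENPE, the kinetochore motor that moves chromosomes to the metaphase plate, read 114, 75.6, 88.4 and 113 CPM with siGATA1-1 against 75.6 to 115 (median 84.0). With siGATA1-2 it read 102, 67.8, 115 and 56.8 CPM against 85.9 to 191 (median 129), with 2 libraries below every control. The log2 fold change was 0.13 (SE 0.27) with siGATA1-1 and -0.62 (SE 0.30, edgeR adjusted p = 0.296) with siGATA1-2. Between the doses of the controls CENPE gave -0.51 (SE 0.23, edgeR adjusted p = 0.293), which was not called. The mean effects of the other members were 0.39 for KIF11, the motor that pushes spindle poles apart (interval -0.28 to 1.06), 0.22 for the chromokinesin KIF4A, 0.09 for the microtubule-binding HMMR, 0.07 for the kinetochore protein CENPF, 0.04 for the microtubule depolymerase KIF2C, -0.10 for the spindle protein NUSAP1 and -0.09 for CENPA, the centromeric histone.

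For the midzone and cytokinesis 0 of 6 were called, and 5 of 6 lay below 0 in the mean effect (median -0.11). KIF20B, a kinesin of the midzone and midbody, read 71.1, 47.6, 35.4 and 17.8 CPM with siGATA1-1 against 25.2 to 78.0 (median 50.8), and 37.1, 19.4, 20.8 and 51.1 CPM with siGATA1-2 against 10.7 to 67.1 (median 39.1). Apart from the library at 17.8 CPM the groups overlapped fully, and the mean effect was -0.26 (SE 0.33). PRC1, which bundles the midzone microtubules, gave 0.36 (SE 0.31) with siGATA1-1 and -0.62 (SE 0.36) with siGATA1-2, a difference of -0.98 (SE 0.48, edgeR adjusted p = 0.954). KIF20A and KIF23, midzone kinesins, gave -0.21 and -0.04 in the mean effect, ANLN (anillin, a scaffold of the contractile ring) -0.09, and ECT2, the exchange factor that activates RhoA at the cell equator, 0.07, each with a standard error from 0.30 to 0.38.

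Condensin, which compacts the chromosomes, and TOP2A, which untangles them, had the lowest role median in the mean effect, -0.30, with 5 of 6 below 0 and 0 of 6 called. With siGATA1-1 all 6 lay below 0, and with siGATA1-2 4 of 6 did. NCAPH, the kleisin subunit of condensin I, read 37.0, 56.0, 23.6 and 8.92 CPM with siGATA1-1 against 46.3 to 115 (median 65.0). Of these 4 libraries 3 lay below all 8 controls, at only 13, 4 and 3 counts. In the siGATA1-2 libraries NCAPH read 55.6, 24.2, 62.5 and 56.8 CPM against 7.96 to 62.0 (median 45.8), with no such shift. Its log2 fold change was -1.10 (SE 0.43, edgeR adjusted p = 0.413) with siGATA1-1 and 0.34 (SE 0.46) with siGATA1-2, a difference of 1.44 (SE 0.63, adjusted p = 0.954). Between the doses of the controls NCAPH gave 0.85 for 25 against 6.25 nM (SE 0.35, edgeR adjusted p = 0.234), which was not called. Against all 16 controls together the value for siGATA1-1 was -0.67 (adjusted p = 0.614).

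NCAPG, a HEAT-repeat subunit of condensin I, showed the reverse order of the siRNAs. It read 85.4, 58.8, 94.3 and 86.2 CPM with siGATA1-1 against 38.9 to 134 (median 84.3), and 64.9, 92.0, 31.3 and 28.4 CPM with siGATA1-2 against 72.1 to 127 (median 92.4). With siGATA1-2 3 of 4 libraries lay below every control, at only 14, 3 and 5 counts. The log2 fold change was -0.68 (SE 0.35, edgeR adjusted p = 0.331) with siGATA1-2, against -0.11 (SE 0.31) with siGATA1-1. The ATPase subunits SMC2 and SMC4 gave -0.43 (SE 0.31) and -0.21 (SE 0.15) in the mean effect, and NCAPD2, the other HEAT-repeat subunit of condensin I, gave 0.10 (SE 0.24).

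TOP2A, topoisomerase II alpha, was the member with most counts, 2212 in all, and gave the tightest estimate. It read 273, 398, 466 and 366 CPM with siGATA1-1 against 322 to 538 (median 362), and 278, 416, 438 and 199 CPM with siGATA1-2 against 247 to 494 (median 389). In TOP2A 1 library of each knockdown group lay below its controls. The mean effect was -0.14 (SE 0.13), with a 95% interval from -0.39 to 0.11.

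Comparing the GATA1 siRNAs with each other called 0 of 43 members and 0% of all tested genes by edgeR; at an unadjusted p under 0.05 it was 3 members (6.98%), NCAPH, CKS1B and PRC1, against 4.94% of all tested genes. The controls gave the background of siRNA identity and dose. Between siNC-1 and siNC-2, 0 members and 0% of all tested genes were called at either dose. Unadjusted, this was 0 members at 25 nM against 1.28% of all tested genes, and 1 member at 6.25 nM (2.33% against 3.01%), CENPA, at 26.8 to 102 CPM with siNC-1 and 0 to 19.0 CPM with siNC-2 (log2 fold change 2.14, SE 0.69, edgeR adjusted p = 0.999). These CENPA values rested on only 5 to 19 counts per library with siNC-1 and 0 to 5 with siNC-2. Between the doses, 0 of 43 members were called against 1.41% of all tested genes, and 5 members (11.6%, against 13.2%) passed unadjusted: CCNF and NCAPH higher at 25 nM, and CKS1B, CENPE and TPX2 lower. Of the members with an unadjusted p under 0.05 for a GATA1 siRNA or for their difference, only CKS1B, CENPE and NCAPH were also among these 5. The comparison of doses uses the same control libraries as those of the GATA1 siRNAs. The overlap is therefore not independent, and no conclusion is drawn from it.

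Members were also set side by side by promoter motif. In the mean effect the 27 tested members with TTTGAA had a median of -0.13 and the 11 without it -0.18, and the 32 with CCAAT had -0.12 against -0.23 for the 6 without. With siGATA1-2 the order for TTTGAA was the other way, -0.22 with it and -0.06 without, and with siGATA1-1 the values were -0.03 and -0.09. These medians are descriptions with no test.

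Further genes of the same program were taken from 4 lists of other mitosis genes: kinetochore and spindle genes, the core of the anaphase-promoting complex, cohesin and separase, and regulators of mitotic genes and entry. Of 99 genes, 79 were tested, and 0 were called by edgeR for siGATA1-1, for siGATA1-2 or in the mean effect. Of all tested genes, 0.727%, 3.03% and 4.48% were called in these comparisons. With only 79 genes, no conclusion is drawn from the 0 calls. The medians of the 79 genes were -0.05, -0.18 and -0.13, close to those of the members. At an unadjusted p under 0.05 there were 1, 7 and 9 such genes (1.27%, 8.86% and 11.4% of the 79, against 6.38%, 15.8% and 16.6% of all tested genes), all lower except 1 in the mean effect. Among the lower ones for siGATA1-2 were CDC25A, the phosphatase that acts on CDK2 and CDK1 (-2.11, SE 0.68, adjusted p = 0.0666), and KIF22, a chromokinesin (-0.92, SE 0.29, adjusted p = 0.0551), chosen for mention after their values were seen. Neither passed the unadjusted threshold with siGATA1-1. The effect of siGATA1-2 minus that of siGATA1-1 was -1.91 for CDC25A (SE 0.86, edgeR adjusted p = 0.954) and -1.21 for KIF22 (SE 0.38, adjusted p = 0.724). Of 42 DNA replication genes, 32 were tested and 1, ORC1, a subunit of the origin recognition complex, fell with siGATA1-2 (-1.84, SE 0.49, edgeR adjusted p = 0.0162) and in the mean effect (-1.37, SE 0.32, adjusted p = 0.00238). A single call among 32 genes is near the 3.03% of all tested genes called for siGATA1-2 and under the 4.48% called in the mean effect. The call of ORC1 for siGATA1-2 was lost in 5 of 33 alternatives, among them those without siGATA1-2 replicate 1 (-1.70, adjusted p = 0.0846) or replicate 4 (-1.67, adjusted p = 0.101), and that for the mean effect in none of 32. The median of that list was -0.09 with siGATA1-1 and -0.38 with siGATA1-2. With siGATA1-2, 28 of the 32 lay below 0 (87.5%, against 50.9% of all tested genes). At an unadjusted p under 0.05 there were 8, all lower (25% against 15.8%). For siGATA1-1 it was 20 of 32 below 0 (62.5% against 49.3%) and 1 unadjusted (3.12% against 6.38%). The list as a whole was not tested.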

How the data were processed

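The 24 libraries were made by version 2 of the BRB-seq protocol, per the labels' protocols, and aligned with STAR 2.5.6b to hg19, per the submitters' processing notes. The authors deposited 1 table of raw counts per gene symbol. The sources used here do not give the annotation, counting program, use of strand or collapsing of molecular identifiers, and binomial intervals and floors cover counting error only; intervals of fold changes come from the fit and include the spread between libraries. Library totals ran from 88290 to 473098. The series' design text calls the 4 libraries of each siRNA biological replicates; where separate cultures are not stated, p-values measure the spread between libraries, which may be technical. Replicates were compared in 36 pairs, of which 0 were identical (chi-square per degree of freedom 1.88 to 3.76).

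Counts of all 24 libraries were fitted with edgeR 4.0.16 in R 4.3.3: filterByExpr (minimum count 10, minimum total 15; 6738 genes, 93.7% of counts), TMM normalization, 1 mean per group and the robust quasi-likelihood F test, with Benjamini-Hochberg adjustment over all tested genes. CPM used TMM-scaled library sizes. Each GATA1 siRNA was compared with the mean of both controls at its dose, then these effects were averaged and subtracted, and the controls were compared by siRNA and by dose. Alternatives included DESeq2 1.42.0 and limma voom 3.58.1. Scripts were tested on simulated data. Values are given in full for CDK1, CCNB1, CCNB2, PLK1, AURKA, AURKB, TOP2A and CDC20, for the member with the smallest p of each role in the mean effect, and for members that passed an unadjusted threshold with a GATA1 siRNA. The members and lists were chosen with earlier results of these data known.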

Additional observations from a re-analysis of the deposited data

Results flagged for a closer look

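Within 7 of 96 groups of 4 libraries examined, 1 library stood apart from the other 3 by Dixon's ratio at its 95% critical value; chance alone flags about 1 group in 20. CKS1B read 47.2 CPM in siGATA1-1 replicate 3, against 83.3 to 86.8 in the rest of its group, and 138 CPM in siNC-2 replicate 2 at 25 nM, against 51.2 to 65.8. CENPE read 75.6 CPM in siNC-1 replicate 1 at 25 nM, against 82.0 to 82.6. TOP2A read 423 CPM in siNC-1 replicate 4 at 25 nM (against 322 to 337), 538 CPM in siNC-2 replicate 3 at 25 nM (against 347 to 379) and 247 CPM in siNC-2 replicate 7 at 6.25 nM (against 361 to 383). The 45 mitosis genes gave 0.479% of the counts in siNC-2 replicate 8 at 6.25 nM, against 0.412 to 0.414% in the other 3 libraries.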

How the results depend on the processing

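Across 36 alternative settings, GATA1 stayed lower and past the threshold in all 69 values recomputed, and 0 members were called in 228 of 229 recomputed counts. The exception was siGATA1-2 without its replicate 4, where 1 member, CKS1B, was called; leaving out each replicate in turn gave 0 to 1 members there. The members' median log2 fold change ran from -0.17 to -0.00 for siGATA1-1, from -0.29 to -0.09 for siGATA1-2 and from -0.18 to -0.10 for the mean effect. For the difference between the siRNAs it was -0.07, but -0.21 with siNC-1 alone as the control and 0.068 with siNC-2 alone; the cause was not tested. Of the values of single members, 1498 moved by less than 1 standard error, 10 moved by more, and 1 passed the threshold (CKS1B, above).

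Of 16 same-numbered pairs of libraries, 4 had deviations correlated above 0.1 (range -0.087 to 0.258). All 4 set siNC-1 beside siNC-2: replicates 3 and 4 at 25 nM (0.13 and 0.258) and 7 and 8 at 6.25 nM (0.156 and 0.249). No pair with siGATA1-1 passed 0.1. Pairs of unlike numbers were not examined, so whether replicate numbers pair the libraries was not settled. With a replicate block, 0 members were called for siGATA1-1 (median -0.11), for siNC-1 against siNC-2 at 25 nM (median -0.15) and at 6.25 nM (median 0.05). No block could be fitted for siGATA1-2, whose numbers the controls at its dose do not share. Depth limits the low members most: with a minimum count of 30, 18 members were tested.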
